A study of Mus musculus with 2 samples.

Results

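A set of 10 genes of extracellular proteolysis was followed across the cell classes of the mouse cerebral cortex: the inhibitors Timp1, Timp2 and Timp3, the matrix metalloproteinases Mmp2 and Mmp14, the ADAMTS proteases Adamts1 and Adamts5, the plasminogen activators Plat and Plau, and the serpin Serpine2. They were chosen by name, and all 10 were found among the 25595 genes of the count tables. The N-PRα-KO library came from mice with the genotype Nestin-Cre;Pdgfra flox/flox, and the WT library from C57BL/6J mice. Nestin-Cre deletes floxed alleles in neural progenitors and their descendants, and Pdgfra encodes the platelet-derived growth factor receptor alpha of oligodendrocyte precursors and fibroblasts. In both libraries the cortex was taken with its meninges, dissociated, sorted magnetically for CD140a, the protein that Pdgfra encodes, and captured on the BD Rhapsody system. The question behind the series is how diverse the activated fibroblasts of a hypomyelinated cortex are. Age, sex and the count of animals are not stated in the labels used here.

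Metalloproteinases cut collagens, proteoglycans and other matrix proteins, and tissue inhibitors of metalloproteinases (TIMPs) block their active site. MMP14 sits in the cell membrane, and together with TIMP2 it binds and activates the secreted proenzyme of MMP2. The plasminogen activators, tissue-type (Plat) and urokinase-type (Plau), turn plasminogen into plasmin, which cuts fibrin and activates other proteases, while SERPINE2 (protease nexin) inhibits both activators and thrombin. In brain and meninges these enzymes and inhibitors are known for remodelling the matrix around vessels, in the meningeal layers and around injured tissue.

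The totals were 41982217 UMIs (unique molecules) over 8336 N-PRα-KO barcodes and 43459947 over 11438 WT barcodes. Barcodes with 300 or more genes and no more than 25% mitochondrial UMIs were taken as cells, 4186 N-PRα-KO and 9895 WT after doublet removal, with median depths before doublet removal of 5790.5 and 3284 UMIs. In all, 4126 N-PRα-KO and 1329 WT barcodes were over the mitochondrial limit. The libraries shared 105 cell barcodes. Pdgfra was at 1928 CPM (UMIs of the gene over all UMIs of a class, times 1e6) in N-PRα-KO and 4649 CPM in WT oligodendrocyte-lineage-like cells, and at 711 and 870.3 CPM in fibroblast-like cells. Which part of the gene was deleted is not stated in the labels, so these counts do not check the deletion. Xist had 15167 N-PRα-KO and 54712 WT UMIs, and Y-linked genes had 3495 and 275, so sex cannot be told apart from genotype. With 1 library per genotype no test was possible. All intervals are 95%, cover counting error only and say nothing of the spread between animals or preparations.

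In all, 10 classes held at least 50 cells in both libraries, and levels were compared within them. Choroid-plexus-like cells (39 N-PRα-KO and 14 WT) and olfactory-neuron-like cells (51 and 0) fell short and were not compared. There were 946 N-PRα-KO and 505 WT fibroblast-like cells. Mural-like cells (pericytes and smooth muscle) numbered 366 and 52, endothelial-like cells 541 and 348, border-macrophage-like cells 109 and 75, and microglia-like cells 575 and 614. Ependymal-like cells numbered 498 and 347, astrocyte-like cells 667 and 1833, oligodendrocyte-lineage-like cells 67 and 5037, and neuronal-lineage-like cells 264 and 950. Cluster 24, with 63 N-PRα-KO and 120 WT cells, had Nov, Shisa3 and Slc47a1 among its leading genes and stayed unnamed, because its scores for arachnoid barrier and fibroblast markers were too close. All 9 fibroblast markers had UMIs in the fibroblast-like cells of both libraries, and summed to 21350 CPM in N-PRα-KO cells and 29590 CPM in WT cells.

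A gene counted as measured in a class at 20 CPM or more in either library, and as higher or lower at a ratio of at least 2-fold. Of 100 pairs of gene and class, 75 were measured, 23 were higher in the N-PRα-KO library and 12 were lower. Of all genes measured in a class, 11.6 to 17.4% were higher and 5.89 to 15.7% lower, depending on the class. Timp2 was higher in all 10 classes, Adamts1 was lower in 6 of the 9 classes that measured it, and Plau was lower in both macrophage classes and mural-like cells but higher in fibroblast-like cells. Serpine2 was measured in 10 classes and passed 2-fold in none.

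**Figure D1:**
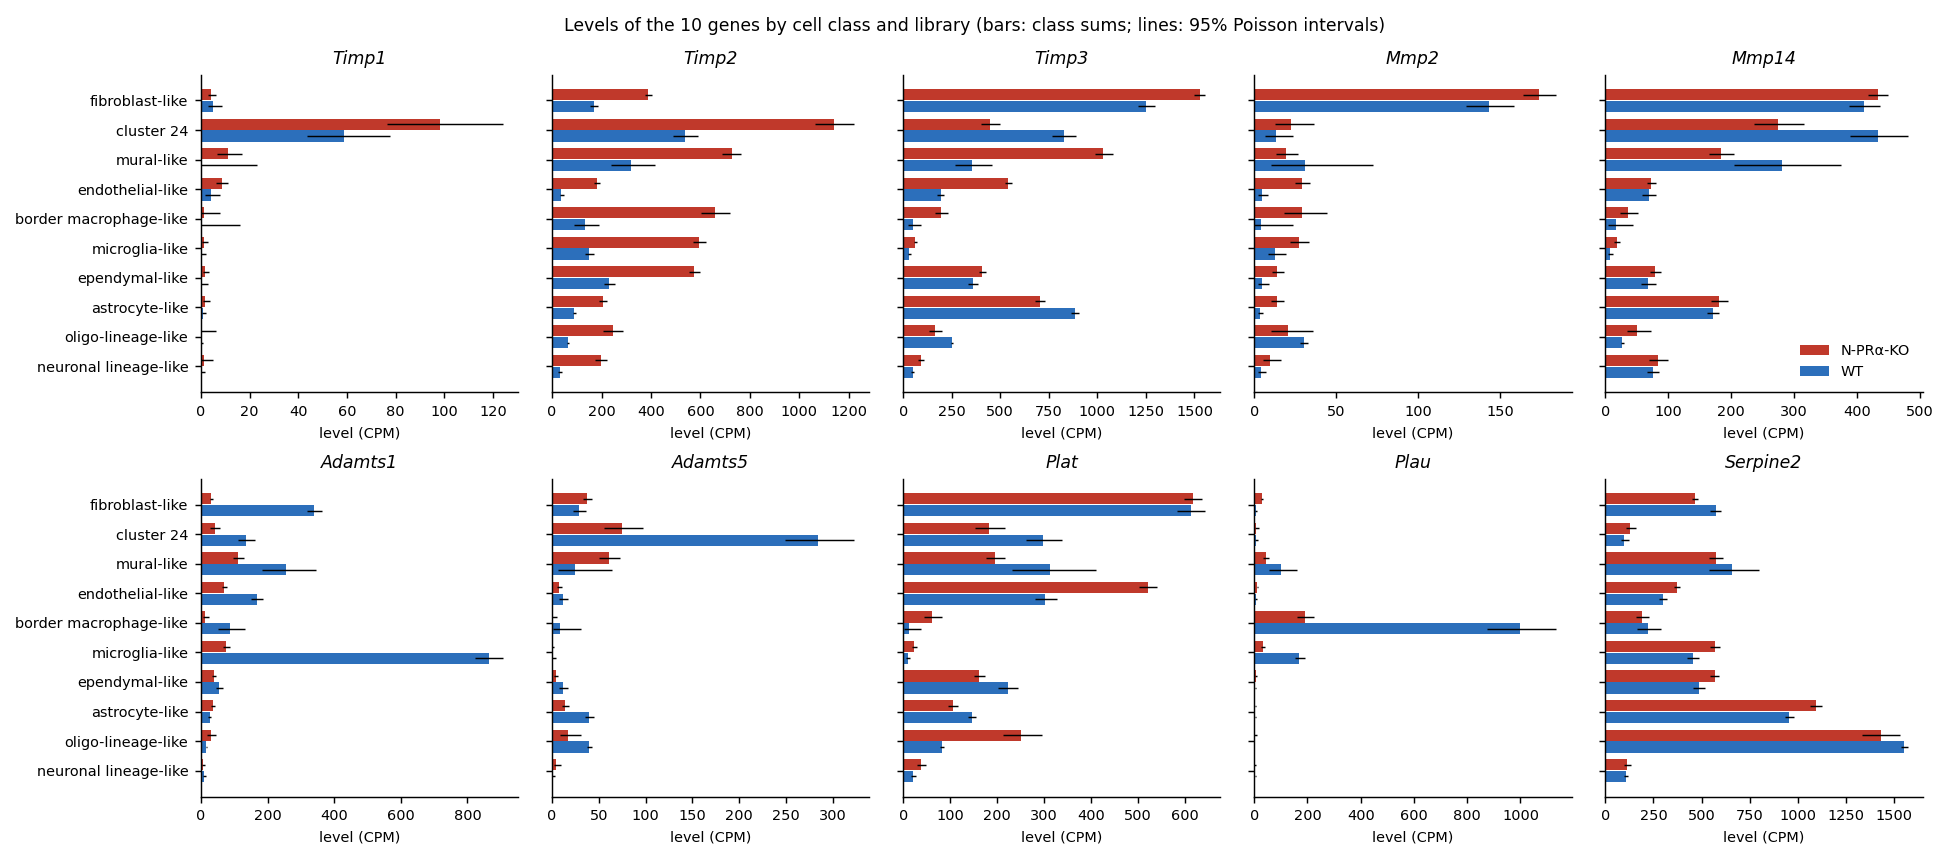
Level of each gene (x axis, CPM) in each cell class (rows) for the N-PRα-KO library (red) and the WT library (blue); bars are class sums and lines are 95% Poisson intervals. Timp1 stands above 20 CPM only in cluster 24, Plau is highest in border-macrophage-like cells, Adamts1 in WT microglia-like cells at 865.1 CPM, and Serpine2 in oligodendrocyte-lineage-like cells.

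Among the 10 compared classes, the genes differed in where they were high. For all but Mmp14 and Adamts1 the highest of these classes was the same in both libraries. Timp3 and Plat were highest in fibroblast-like cells in both libraries, as was Mmp2, with 69.6% of its N-PRα-KO and 34.9% of its WT UMIs in these cells. For Mmp2 the next class lay far lower, with a fibroblast level 5.97 times that of endothelial-like N-PRα-KO cells and 4.6 times that of mural-like cells in the WT library. The WT mural-like value rested on 5 UMIs (31.1 CPM, interval 10.1 to 72.7), beside 30.5 CPM in WT oligodendrocyte-lineage-like cells. Endothelial-like and border-macrophage-like N-PRα-KO cells were close, at 29.2 and 29.1 CPM. Mmp14 was highest in N-PRα-KO fibroblast-like cells, at 433 CPM, and in the WT library cluster 24 (433 CPM) and fibroblast-like cells (411 CPM) had overlapping intervals. Timp1 and Timp2 were highest in cluster 24 of both libraries, Plau in border-macrophage-like cells and Serpine2 in oligodendrocyte-lineage-like cells. Adamts5 was highest in cluster 24 of both libraries, where in the N-PRα-KO library its interval overlapped that of mural-like cells. Adamts1 was the exception. It was highest in N-PRα-KO mural-like cells (112 CPM) and in microglia-like cells of the WT library (865 CPM). Outside the compared classes, the few choroid-plexus-like cells stood higher for Adamts1 in the N-PRα-KO library (137 CPM) and for Timp3 in the WT library (2160 CPM, interval 1783 to 2593).

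In fibroblast-like cells, 9 of the 10 genes were measured, and their median log2 ratio was 0.28, against -0.004 over all 7308 genes measured there. Of the 9, Timp2 and Plau were at least 2-fold higher, beside 16.1% of all genes, and Adamts1 was at least 2-fold lower, beside 8.39% of all genes. The other 6, Timp3, Mmp2, Mmp14, Adamts5, Plat and Serpine2, lay between log2 ratios of -0.30 and 0.37. The fibroblast-like cells of the libraries were not alike in kind. A list of 5 perivascular and pial fibroblast markers summed to 6328 CPM in N-PRα-KO and 2180 CPM in WT fibroblast-like cells, and 5 arachnoid fibroblast markers summed to 1003 and 2256 CPM. In the joint clustering they shared almost no cluster, with 623 N-PRα-KO and 0 WT cells in cluster 6, 0 and 497 in cluster 11 and 323 and 8 in cluster 18. The ratios were therefore also taken within sub-clusters that hold cells of both libraries, made after every gene was centred within its library.

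**Figure D2:**
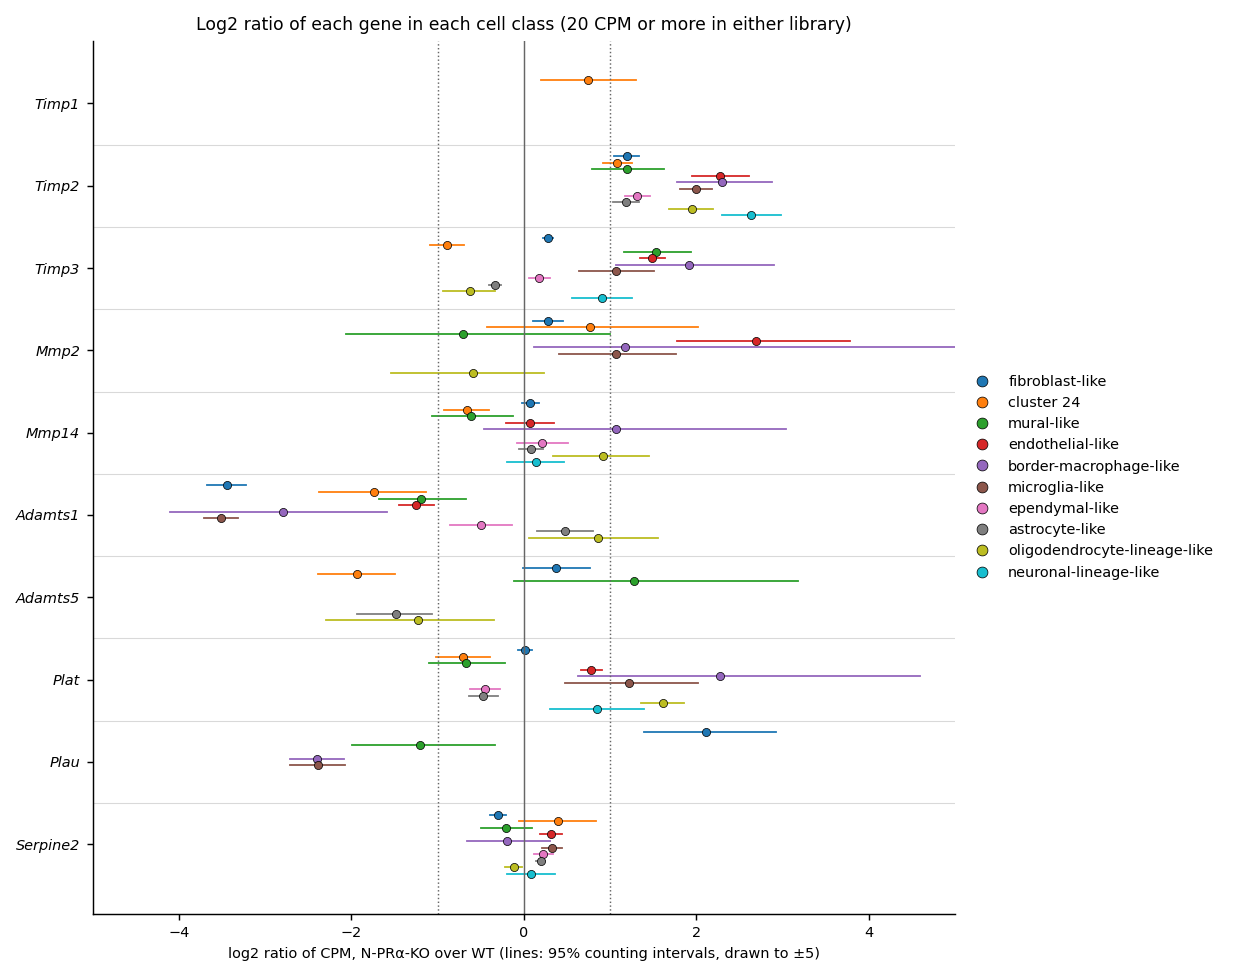
Log2 ratio between the libraries, N-PRα-KO over WT (x axis) for each gene (rows), with a point per cell class that measured it and a line for its 95% counting interval; dotted lines mark 2-fold. The 10 points of Timp2 lie at 1.08 or above, 6 of the 9 points of Adamts1 lie at -1.19 or below, and the 10 points of Serpine2 lie between -0.30 and 0.39.

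Among the inhibitors, Timp2 (chr11:118301069-118355740, minus strand, GRCm38) was at least 2-fold higher in each of the 10 class sums. It was at 389 CPM in N-PRα-KO and 170.2 CPM in WT fibroblast-like cells, a log2 ratio of 1.19 (interval 1.04 to 1.34). The ratio was larger in both macrophage classes and in endothelial-like, neuronal-lineage-like, oligodendrocyte-lineage-like and ependymal-like cells. Border-macrophage-like cells had 659 and 133 CPM (log2 ratio 2.31, interval 1.78 to 2.88), microglia-like cells 596 and 149 CPM (2.0, interval 1.82 to 2.18), and endothelial-like cells 182.5 and 37.8 CPM (2.27, interval 1.95 to 2.61). Neuronal-lineage-like cells had 196 and 31.6 CPM (2.63), oligodendrocyte-lineage-like cells 245 and 63.4 CPM (1.95), ependymal-like cells 574 and 231 CPM (1.31), mural-like cells 726 and 318 CPM (1.19), astrocyte-like cells 206 and 90.5 CPM (1.19) and cluster 24 1140 and 539 CPM (1.08). No class had overlapping intervals of its levels. The astrocyte-like cells of the libraries fell into wholly separate clusters, though, and some of these were at like levels. Timp2 was at 153 CPM (interval 138 to 168) in cluster 14 and 343 CPM in cluster 21, both of N-PRα-KO cells, and at 149 CPM (interval 134 to 166) in cluster 3, 63.5 CPM in cluster 4 and 32 CPM in cluster 20, all of WT cells. Of 4288 genes measured in all 10 classes, 174 (4.06%) were at least 2-fold higher in each of them, so the pattern is shared by few genes but not particular to Timp2.

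Cells with a Timp2 UMI were more frequent too. With every cell thinned to 2000 UMIs, a Timp2 UMI was present in 50.6% (N-PRα-KO) and 29.4% (WT) of fibroblast-like cells (79.2% and 52.7% before thinning), and in 68.5% and 26.4% of microglia-like cells. In neuronal-lineage-like cells, the class lowest for Timp2 in the WT library, the thinned shares were 26.4% and 6.04%, with median depths of 4326 and 2554 UMIs before thinning against 6218 and 4322 in fibroblast-like cells. Neuronal clusters that both libraries share showed the same direction, with 101 CPM in N-PRα-KO cells and 17.8 CPM in WT cells of cluster 9 and 465 and 91.5 CPM in cluster 22. As a background, the level of the lowest compared class was taken off in each library. It was 182.5 CPM in N-PRα-KO endothelial-like cells and 31.6 CPM in WT neuronal-lineage-like cells. The log2 ratio was then 0.57 in fibroblast-like cells and -1.34 in astrocyte-like cells. Endothelial-like cells were left with no N-PRα-KO count, which was set to 3. Their value of -3.51 rests on that setting and is not a measured reversal. With the trend on base composition removed, the Timp2 log2 ratio ranged from 0.83 to 2.33 over the 10 classes. It was under 2-fold in fibroblast-like (0.93), cluster 24, mural-like and astrocyte-like cells. Without that removal, Bsg, described with the other pathway genes, was also higher in all 10 classes.

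Timp3 (chr10:86300372-86349506, plus strand), a TIMP that stays bound to the matrix, was high in fibroblast-like cells of both libraries, at 1526 CPM in N-PRα-KO cells and 1251 CPM in WT cells (log2 ratio 0.29, interval 0.23 to 0.34). In the cells of the vessel wall its ratio between the libraries was larger, at levels under those of fibroblast-like cells. Mural-like cells had 1031 CPM in N-PRα-KO and 355 CPM in WT (1.54, interval 1.16 to 1.95), from 1889 and 57 UMIs. Within mural sub-cluster 0, with 120 N-PRα-KO and 22 WT cells, it was at 1060 and 423 CPM. Endothelial-like cells had 542 and 193 CPM (1.49, interval 1.34 to 1.64). The difference was also seen inside the endothelial cluster that both libraries share, cluster 26, led by Gkn3, Ptprb and Sema3g, with 1564 CPM in 77 N-PRα-KO cells and 689 CPM in 70 WT cells. Border-macrophage-like cells had 195 and 51.6 CPM (1.92, interval 1.07 to 2.90), from 141 and 12 UMIs, and microglia-like cells 63.0 and 30.1 CPM (1.07). Under the stricter cell filter the ratio in border-macrophage-like cells was -0.18, from only 16 N-PRα-KO and 11 WT cells. In cluster 24 Timp3 was at 447 CPM in N-PRα-KO cells and 826 CPM in WT cells (-0.89), and astrocyte-like cells had 703 and 885 CPM (-0.33). Timp3 lies within Syn3 on the opposite strand with overlapping exons, and Syn3 had 320 and 136 UMIs in the cells used, N-PRα-KO and WT, against 20659 and 16645 for Timp3.

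Timp1 (chrX:20870166-20874735, plus strand), the TIMP that is known to be induced in injured tissue, was low. Fibroblast-like cells held 28 Timp1 UMIs in N-PRα-KO (4.29 CPM) and 13 in the WT library (5.07 CPM), both under the 20 CPM limit, and 2.85% and 2.18% of cells had a UMI. Only cluster 24 passed the limit, with 98.3 CPM in N-PRα-KO cells and 58.8 CPM in WT cells (log2 ratio 0.74, interval 0.19 to 1.30). There 41.3% of N-PRα-KO and 18.3% of WT cells held a Timp1 UMI, and 16.7% and 8.11% after thinning, from 10 of 60 and 9 of 111 cells. The intervals of the thinned shares overlapped (8.29 to 28.5% and 3.78 to 14.8%). With the trend on base composition removed the ratio was -0.14. Timp1 is X-linked and lies within Syn1 on the opposite strand, with no overlap of exons.

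The gelatinase Mmp2 (chr8:92827291-92853420, plus strand) and its activator Mmp14 (chr14:54431612-54445364, plus strand) were close between the libraries in fibroblast-like cells. Mmp2 was at 174 CPM in N-PRα-KO cells and 143 CPM in WT cells (log2 ratio 0.28, interval 0.11 to 0.45), and Mmp14 at 433 and 411 CPM (0.08, interval -0.03 to 0.18). The thinned shares of cells were 25.8% and 24% for Mmp2 and 56.6% and 55.2% for Mmp14. Mmp14, Mmp2 and Timp2 were all found in 64 of 941 thinned N-PRα-KO fibroblast-like cells (6.80%, interval 5.28 to 8.60) and 26 of 462 WT cells (5.63%, interval 3.71 to 8.14). The product of the 3 separate shares was 7.40% in N-PRα-KO and 3.9% in WT cells, each inside the interval of its library.

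Among the other classes that measured it, Mmp14 passed 2-fold only in border-macrophage-like cells, from 26 N-PRα-KO and 4 WT UMIs, with an interval from -0.46 to 3.04. Cluster 24 had 274 CPM of Mmp14 in N-PRα-KO and 433 CPM in WT cells (-0.66), and mural-like cells 184 and 280.2 CPM (-0.61). Mmp2 was higher in endothelial-like cells, at 29.2 CPM in N-PRα-KO cells and 4.5 CPM in WT cells (2.70, interval 1.78 to 3.79). In the shared cluster 26 Mmp2 was at 84.1 and 13.6 CPM, from 69 and 6 UMIs. It was also higher in microglia-like cells, at 27.1 and 13 CPM (1.06, interval 0.41 to 1.77), and in border-macrophage-like cells, from 21 and 1 UMIs.

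Fibroblast RNA in the macrophage classes differed between the libraries in the same direction. The 9 fibroblast markers summed to 2252 CPM in N-PRα-KO and 198 CPM in WT border-macrophage-like cells, where 9 and 6 of the 9 had UMIs, and to 610 and 188 CPM in microglia-like cells, where 9 and 9 did. In neuronal-lineage-like cells, which should lack them, the sums were 686 and 191 CPM. Beside them stood higher Plat in border-macrophage-like cells (62.3 and 12.9 CPM, from 45 and 3 UMIs), Plat in microglia-like cells (22.9 and 9.85 CPM), Timp3 in both classes, Mmp2 in both classes and Mmp14 in border-macrophage-like cells. The part of fibroblast RNA in these differences was not tested. After thinning, 6 of 106 N-PRα-KO and 0 of 41 WT border-macrophage-like cells held an Mmp2 UMI. For Plat 6 and 1 cells did, and for Mmp14 3 and 3. With counts under 3 set to 3, the log2 ratios of Mmp2, Mmp14 and Plat were -0.37, -0.63 and -0.15. Their signs rest on too few UMIs to show a direction.

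**Figure D3:**
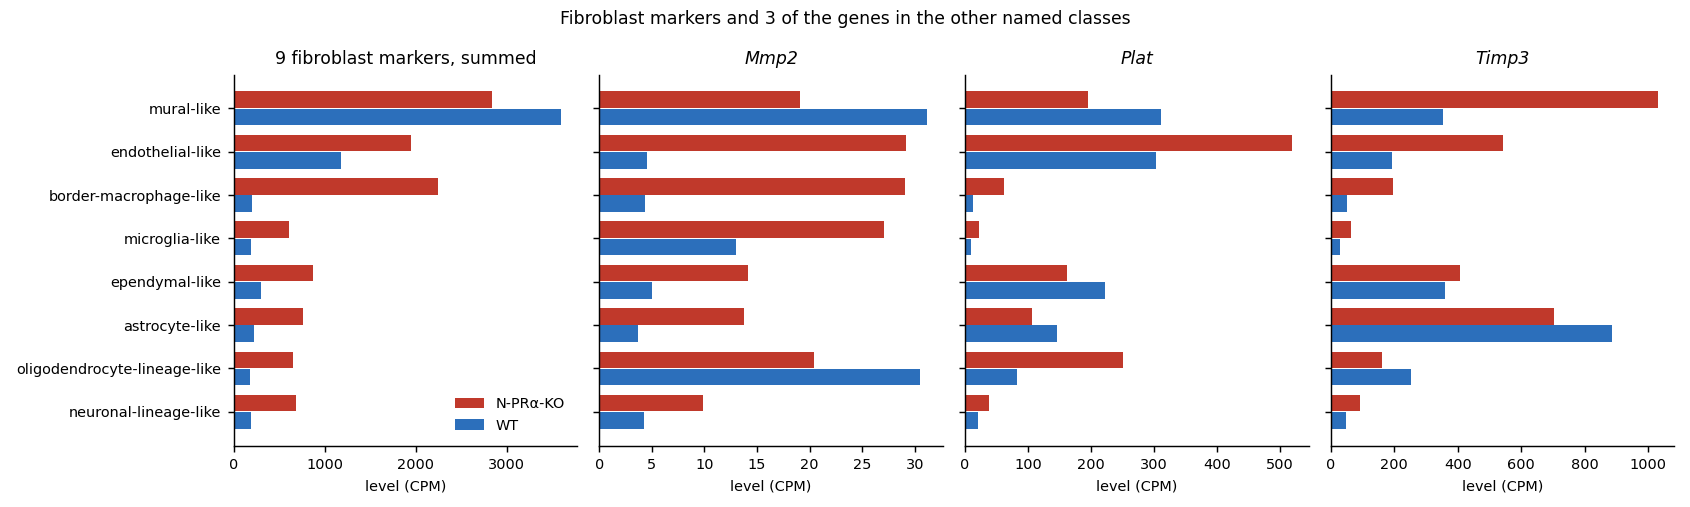
Summed level of 9 fibroblast markers and levels of Mmp2, Plat and Timp3 (x axes, CPM) in the named classes other than fibroblast-like cells (rows), for the N-PRα-KO library (red) and the WT library (blue). The marker sum is higher in the N-PRα-KO library in every class shown except mural-like cells, where it is 2843 CPM in N-PRα-KO and 3599 CPM in WT cells.

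Adamts1 (chr16:85793827-85803113, minus strand), a secreted protease that cuts the proteoglycans versican and aggrecan, differed by the widest margin. Fibroblast-like cells had 31.2 CPM in N-PRα-KO and 339.6 CPM in WT, a log2 ratio of -3.44 (interval -3.67 to -3.22). Only 0.246% of the genes measured in fibroblast-like cells had a lower ratio. In fibroblast-like cells the share with a UMI was 12.6% in N-PRα-KO and 44.6% in WT, and after thinning it was 5.10% and 32.0%, against 0.80% and 2.18% of neuronal-lineage-like cells. Microglia-like cells had 75.9 and 865.1 CPM (-3.51, interval -3.71 to -3.32), and 6.62% and 34.5% of thinned cells held a UMI. Border-macrophage-like cells had 12.5 and 86.0 CPM (-2.79, from 9 and 20 UMIs), cluster 24 40.7 and 136 CPM (-1.74), endothelial-like cells 70.6 and 167 CPM (-1.25) and mural-like cells 112 and 255 CPM (-1.19). Of 5056 genes measured in at least 9 classes, 166 (3.28%) were lower in 6 or more.

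Adamts1 was within 2-fold in 3 classes. Ependymal-like cells had 38.1 and 53.8 CPM (-0.50), astrocyte-like cells 36.1 CPM in N-PRα-KO cells and 25.8 CPM in WT cells (0.48, interval 0.16 to 0.81), and oligodendrocyte-lineage-like cells 28.9 and 15.9 CPM (0.86, interval 0.06 to 1.56). In microglia-like cells, cluster 7 (542 N-PRα-KO cells) was at 65.4 CPM and cluster 8 (524 WT cells) at 836 CPM, and the shared cluster 28 had 195 CPM in 26 N-PRα-KO and 974 CPM in 90 WT cells. In endothelial-like cells the ratio was under 2-fold with the base composition trend removed (-0.66), as it was in mural-like cells (-0.61), and the stricter cell filter turned it to 0.61, from 13 N-PRα-KO and 18 WT endothelial-like cells. Within the shared endothelial cluster 26 Adamts1 was at 189 and 379.6 CPM (-1.01).

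Immediate early and dissociation-induced genes were lower in the same fibroblast-like cells. Of 18 such genes, such as Fos and Junb, none had a ratio above 0, 16 were at least 2-fold lower and their median log2 ratio was -2.24. Fos was at 553 CPM in N-PRα-KO and 4468 CPM in WT fibroblast-like cells, and Junb at 143 and 870.3 CPM. In microglia-like cells 10 of 18 were lower, with a median of -1.07. Where Adamts1 was within 2-fold or not measured, the list was also lower at its median, except in oligodendrocyte-lineage-like cells. In ependymal-like cells 8 of 16 measured genes were lower and 1 was higher (median -0.97), and in astrocyte-like cells 5 of 13 were lower and 0 higher (median -0.44). In oligodendrocyte-lineage-like cells 0 of 13 measured genes were lower and 2 were higher (median 0.27), whereas in neuronal-lineage-like cells 8 of 13 were lower (median -1.11) and Adamts1 was under 20 CPM in both libraries. The order of classes was not the same for the list and for Adamts1. In border-macrophage-like cells the median of the list was -0.33 and in cluster 24 -0.11, beside Adamts1 ratios of -2.79 and -1.74. Of the list, 4 of 18 genes were lower and 3 higher in endothelial-like cells (median -0.42). In mural-like cells 7 of 17 were lower and 0 higher (median -0.99). Adamts1 was at -1.25 and -1.19 in these classes. The part of dissociation in the Adamts1 difference was not tested, and handling cannot be told apart from genotype here.

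**Figure D4:**
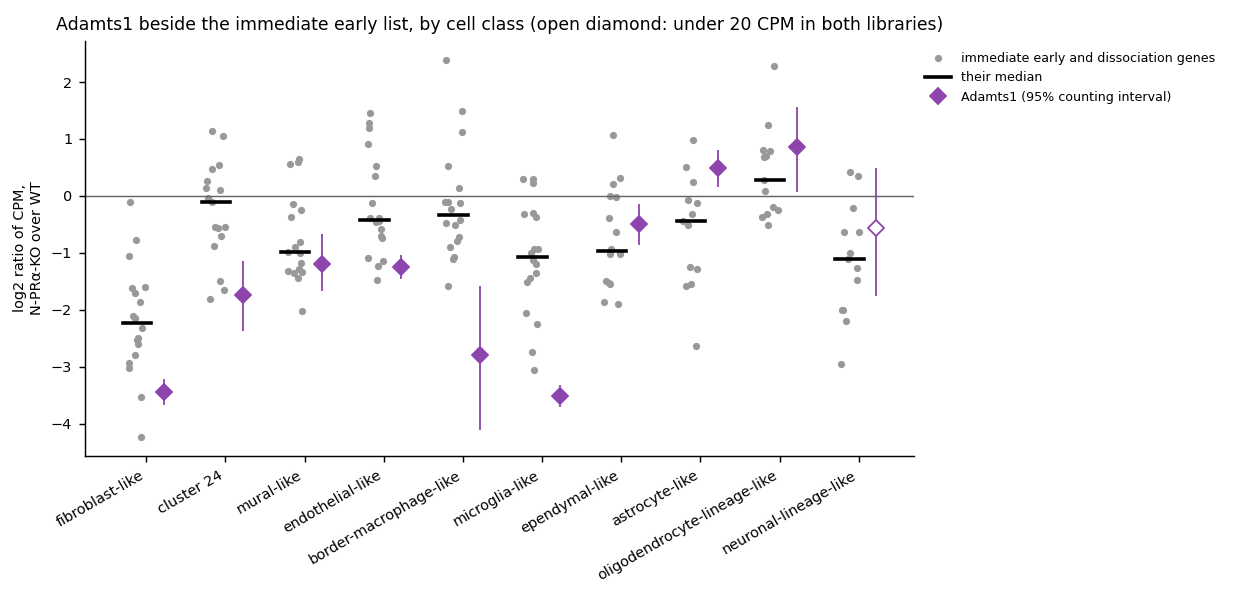
Log2 ratio between the libraries, N-PRα-KO over WT (y axis) in each cell class (x axis) for the immediate early and dissociation genes (grey points, black bar at their median) and for Adamts1 (purple diamond with its 95% counting interval, open where it was under 20 CPM in both libraries). In fibroblast-like cells all grey points lie under 0 and Adamts1 lies at -3.44, under their median of -2.24.

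Adamts1 and Timp2 passed 2-fold in the most classes, 6 and 10, in opposite directions, so the 250 bases before their RefSeq starts are shown, with matches to the GC box GGGCGG and the TATA box TATAAA in capitals on either strand. Promoter entries were found for 6 of the 10 genes, Timp1, Timp2, Timp3, Mmp14, Adamts1 and Serpine2. The Adamts1 window is chr16:85803114-85803363 and the Timp2 window chr11:118355412-118355661, both on the minus strand of GRCm38.p6 and written 5′ to 3′. The Timp2 window falls inside the GENCODE span of the gene given above, which reaches 118355740. Its RefSeq start thus lies downstream of the GENCODE start. The Serpine2 window also falls inside its GENCODE span, and the Timp3 window overlaps its span in part.
Adamts1: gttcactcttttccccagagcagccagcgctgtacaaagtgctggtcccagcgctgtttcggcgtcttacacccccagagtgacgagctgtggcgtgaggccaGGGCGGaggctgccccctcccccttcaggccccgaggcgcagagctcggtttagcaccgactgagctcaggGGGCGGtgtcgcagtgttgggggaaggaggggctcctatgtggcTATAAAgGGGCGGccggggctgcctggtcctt
Timp2: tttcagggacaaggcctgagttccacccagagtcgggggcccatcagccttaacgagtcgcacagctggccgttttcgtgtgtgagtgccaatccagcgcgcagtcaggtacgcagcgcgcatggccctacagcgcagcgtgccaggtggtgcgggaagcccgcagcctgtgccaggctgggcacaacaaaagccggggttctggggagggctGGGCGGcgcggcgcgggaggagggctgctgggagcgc
The Adamts1 window held 3 GC boxes, at 147, 76 and 25 bases before the start, and a TATA box at 32, counted to the first base of each match. The Timp2 window held a single GC box at 37 bases and no TATA box, and had a GC content of 68% against 65.6% for Adamts1. A GC box was present in 6 of the 6 windows of these genes and in 32.7% of 32851 promoter windows of the same length, and the TATA box in 1 of the 6 and in 12.4% of all. Since Fos and Jun proteins bind the AP-1 site TGANTCA and related factors the site TGACGTCA, these were searched too, on both strands. They were present in 0 of the 6 windows, against 6.75% and 1.55% of all promoter windows. A match is a match of letters only, and no match says only that these letters are not in this window.

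Adamts5 (chr16:85856173-85901828, minus strand), an aggrecanase encoded on the same chromosome as Adamts1, followed another pattern. Fibroblast-like cells had 37.4 CPM in N-PRα-KO and 28.9 CPM in WT (log2 ratio 0.37, interval -0.01 to 0.77). Mural-like cells had 60.6 and 24.9 CPM (1.28), but the WT value rested on 4 UMIs and the interval ran from -0.11 to 3.18. In cluster 24, where Adamts5 was highest, it was at 74.4 CPM in N-PRα-KO cells and 284 CPM in WT cells (-1.93, interval -2.39 to -1.50). It was also lower in astrocyte-like cells (14.3 and 40.0 CPM, -1.49, interval -1.93 to -1.07) and in oligodendrocyte-lineage-like cells (17.0 and 39.9 CPM, -1.23, interval -2.30 to -0.34, from 10 N-PRα-KO UMIs). With the base composition trend removed the last 2 classes were at -0.96 and -0.65, both under 2-fold. These cells sat in different clusters in each library, and the difference was not seen between all of them. Adamts5 was at 17.3 CPM in N-PRα-KO cluster 14 and 6.5 CPM in N-PRα-KO cluster 21 of the astrocyte-like cells, and at 16.8, 53.2 and 36.9 CPM in WT clusters 3, 4 and 20. Of the oligodendrocyte-lineage-like cells, N-PRα-KO cluster 31 was at 32.6 CPM (interval 14.9 to 61.9), while 5 WT clusters ran from 32.4 to 49.6 CPM and WT cluster 25 was at 9.3 CPM.

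Among the plasminogen activators, Plau (chr14:20836660-20843385, plus strand) was highest in border-macrophage-like cells, at 190 CPM in N-PRα-KO cells and 998 CPM in WT cells (log2 ratio -2.40, interval -2.71 to -2.08). A Plau UMI was found in 46.8% of N-PRα-KO and 54.7% of WT border-macrophage-like cells, and after thinning in 21.7% and 73.2%. Of the 75 WT cells, 41 were deep enough to be thinned. Microglia-like cells had 32.5 and 170.0 CPM (-2.39, interval -2.71 to -2.07), and the shared microglial cluster 28 had 43.3 and 228 CPM, from 10 and 92 UMIs. Mural-like cells had 43.1 and 99.6 CPM (-1.21, interval -2.0 to -0.33), from 79 and 16 UMIs. Among mural sub-clusters 0 to 3 the difference was widest in sub-cluster 0, at 3.71 and 163 CPM, from 2 and 10 UMIs in 120 N-PRα-KO and 22 WT cells. Sub-cluster 1 was at 65.6 and 74.7 CPM, and sub-cluster 2 at 32 and 30 CPM, with 10 WT cells in each. Sub-cluster 3 rested on 3 and 1 UMIs. The mix of pericytes and smooth muscle differed too: the smooth muscle list summed to 17320 CPM in N-PRα-KO and 7376 CPM in WT cells of sub-cluster 0, and the pericyte list to 24890 and 41180 CPM. The part of that mix in the Plau difference was not tested.

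In fibroblast-like cells Plau was higher, at 28.8 CPM in N-PRα-KO cells and 6.64 CPM in WT cells (2.12, interval 1.40 to 2.93), from 188 and 17 UMIs. After thinning, 5.31% (N-PRα-KO) and 1.30% (WT) of fibroblast-like cells held a UMI, against 0.40% and 0.67% of neuronal-lineage-like cells. The stricter cell filter, which left 80 N-PRα-KO and 9 WT fibroblast-like cells, turned the ratio to -0.87. Since counts under 3 were set to 3, so few WT cells cannot show a direction for a gene at this level. Within the shared sub-cluster 0 it was 1.1. In sub-cluster 4 it was 0.73, with Plau under 20 CPM in both libraries. The remaining 6 classes were under 20 CPM in both libraries.

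Plat (chr8:22757727-22782844, plus strand) was close to equal in fibroblast-like cells, at 617 CPM in N-PRα-KO cells and 612 CPM in WT cells (log2 ratio 0.01, interval -0.07 to 0.10), with thinned shares of 69.8% and 66.7%. Endothelial-like cells had 520 and 303 CPM (0.78, interval 0.66 to 0.90), and cluster 26 had 532 and 420 CPM. Oligodendrocyte-lineage-like cells had 251 CPM in N-PRα-KO and 82.0 CPM in WT (1.62, interval 1.36 to 1.86), but their kinds differed. Cluster 25, which has Mag and Mobp among its leading genes, was at 335 CPM in 148 WT cells, and cluster 31, led by Lhfpl3, at 112 CPM in 46 N-PRα-KO cells, while the 5 other WT clusters ran from 36.0 to 79.4 CPM. The remaining classes lay between -0.70 in cluster 24 and 0.85 in neuronal-lineage-like cells, apart from both macrophage classes.

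Serpine2 (chr1:79794197-79861180, minus strand) differed least. It was highest in oligodendrocyte-lineage-like cells, at 1430 CPM in N-PRα-KO cells and 1552 CPM in WT cells (-0.12), and in astrocyte-like cells, at 1095 and 957 CPM (0.19). Its log2 ratio lay between -0.30 in fibroblast-like cells (467 and 573 CPM, interval -0.39 to -0.20) and 0.39 in cluster 24 (131 and 99.6 CPM, interval -0.05 to 0.84). Without cluster 18, a fibroblast cluster of 323 N-PRα-KO and 8 WT cells where Serpine2 was at 882 CPM in N-PRα-KO cells, the fibroblast ratio was -1.07, past 2-fold.

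Within fibroblast-like cells, 7 sub-clusters were found, and several of the genes varied among them. Sub-cluster 0 (216 N-PRα-KO and 82 WT cells, led by Runx1) and sub-cluster 4 (155 and 84 cells, led by Sulf1 and Col1a1) held at least 50 cells of both. Sub-cluster 1 held 1 and 267 cells and had Ptgs2 and Atf3 among its leading genes, sub-cluster 2 held 264 and 4 cells, sub-cluster 3 held 252 and 6, and the dividing sub-cluster 5, led by Top2a, held 41 and 55. Timp3 was highest in sub-cluster 2 of the N-PRα-KO library (2749 CPM), next in sub-cluster 1 of the WT library (1781 CPM), and lowest in the dividing cells (575 and 559 CPM). Both high sub-clusters carried much of the arachnoid list, at 2257 and 3322 CPM. Serpine2 was also high there, at 887 and 606 CPM, against 221 CPM in sub-cluster 3. Adamts5 and Plau were low in the same pair of sub-clusters: Adamts5 was at 6.9 and 6.5 CPM and Plau at 9.7 and 2.4 CPM, against 63.0 and 43.5 CPM in sub-cluster 3.

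The Adamts1 level was lower in N-PRα-KO cells of sub-clusters 0, 4 and 5, those with at least 20 cells of both libraries. It was at 13.7 CPM in N-PRα-KO cells and 146 CPM in WT cells of sub-cluster 0 (log2 ratio -3.41), at 23.6 and 495 CPM in sub-cluster 4 (-4.39) and at 8.8 and 188 CPM in the dividing sub-cluster 5. Timp2 was at 381 and 141 CPM in sub-cluster 0 (1.44), at 432 and 266 CPM in sub-cluster 4 (0.70, under 2-fold) and at 304 and 89.2 CPM in sub-cluster 5. Mmp2 took opposite directions, with -0.67 in sub-cluster 0 (86.9 and 138 CPM) and 0.68 in sub-cluster 4 (288 and 180 CPM). Adamts5 did so too, with -0.77 (44.0 and 75.2 CPM) and 1.06 (49.2 and 23.7 CPM, from 46 and 10 UMIs). Mmp14 was at -0.18 and 0.10. The sub-clusters were matched only in part, since the perivascular and pial list summed to 8312 CPM in N-PRα-KO cells and 5515 CPM in WT cells of sub-cluster 0, and to 7791 and 2394 CPM in sub-cluster 4.

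**Figure D5:**
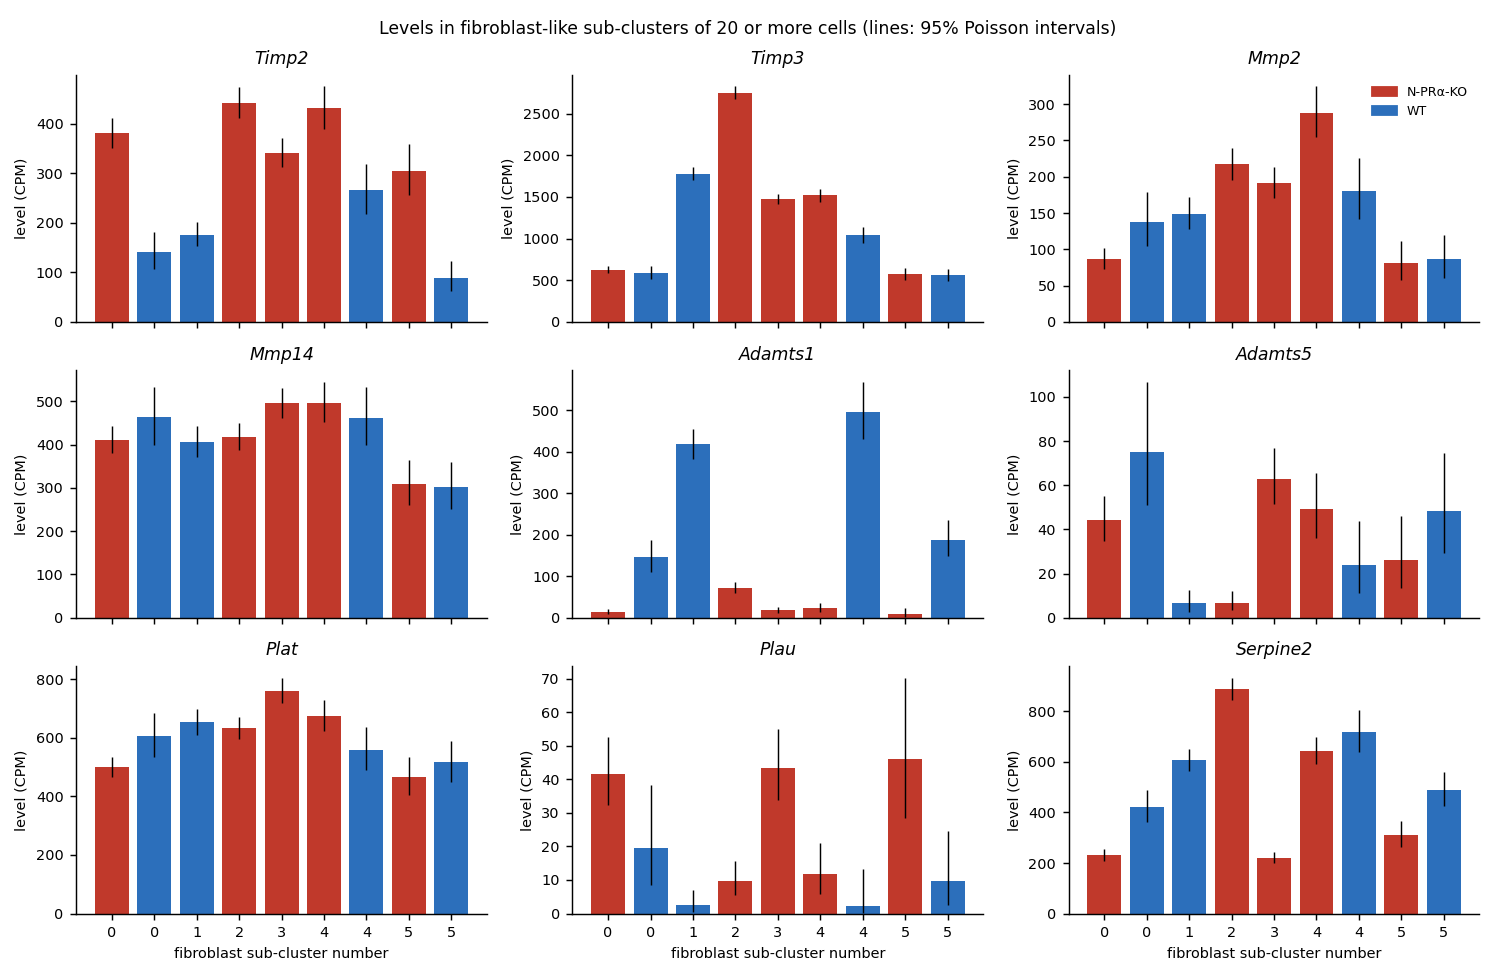
Levels of 9 of the genes (y axes, CPM) in fibroblast-like sub-clusters with at least 20 cells (x axis, by number), N-PRα-KO in red and WT in blue, with 95% Poisson intervals. Adamts1 is at most 71.4 CPM in N-PRα-KO cells and at least 145.5 CPM in WT sub-clusters, and Timp3 reaches 2749 CPM in sub-cluster 2.

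Of 63 further genes of the same pathways, 61 were found in at least 1 table and 29 were measured in fibroblast-like cells. Of these, 6 were higher and 7 lower there, with a median log2 ratio of 0.08. The 5 highest were Mmp25 (26 CPM in N-PRα-KO cells and 3.9 CPM in WT cells, log2 ratio 2.74), Adam15 (48.7 and 8.59 CPM, 2.50), Bsg (758 and 172 CPM, 2.14), Mmp11 (79.5 and 33.6 CPM, 1.24) and Lrp1 (207 and 92.1 CPM, 1.17). Bsg encodes basigin, known to induce metalloproteinases, and LRP1 is a receptor that clears proteases bound to their inhibitors. Bsg was at least 2-fold higher in all 10 classes, from 1.60 in endothelial-like cells (7369 and 2428 CPM) to 3.04 in neuronal-lineage-like cells (462 and 56.0 CPM). With the base composition trend removed, Bsg was at 0.55 in endothelial-like cells. In fibroblast-like cells Lrp1 and Mmp11 then fell to 0.39 and 0.85, and the median of the list to -0.25. Mmp25 (2.4), Adam15 (1.18) and Bsg (1.18) stayed past 2-fold there. Among the lowest were Mmp16 (9.65 and 42.5 CPM, -2.14), Adamts15 (7.51 and 24.2 CPM, -1.69), Adamts4 (13 and 34.4 CPM, -1.40) and Adam12 (43.5 and 94.1 CPM, -1.11). Serpinh1, a chaperone of collagen, had the highest level of the list in fibroblast-like cells, at 1046 CPM in N-PRα-KO cells and 518 CPM in WT cells.

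For the other classes, the share of all measured genes past the same limit is given beside each count. In cluster 24, 1 of 9 measured genes was higher (17.2% of all genes) and 2 were lower (10%). In mural-like cells 3 of 9 were higher (11.6%) and 2 lower (13.8%), and in endothelial-like cells 3 of 7 were higher (17.3%) and 1 lower (9.46%). The macrophage classes had the largest counts, with 5 of 8 higher (17.2%) and 2 lower (15.7%) in border-macrophage-like cells and 4 of 7 higher (16.3%) and 2 lower (9.38%) in microglia-like cells. Of the genes higher in border-macrophage-like cells, Mmp2, Mmp14 and Plat rested on 1, 4 and 3 WT UMIs. In ependymal-like cells 1 of 6 was higher (14.4%) and 0 were lower (6.05%), and in astrocyte-like cells 1 of 7 was higher (14.0%) and 1 lower (7.47%). In oligodendrocyte-lineage-like cells 2 of 8 were higher (17.4%) and 1 lower (13.5%), and in neuronal-lineage-like cells 1 of 5 was higher (16.9%) and 0 were lower (5.89%). The single gene higher in 4 of these classes was Timp2. In every class the log2 ratios of all genes followed the GC content of the last 500 transcript bases, with a rank correlation across genes between 0.48 and 0.66, and this content was 46.6% for Timp2 and 30.4% for both Adamts1 and Adamts5.

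For each gene, the most similar of 8651 genes were sought over the 20 sums of 10 classes in 2 libraries, by Pearson's r of log2(CPM + 10). The sums of a library share its depth and preparation, and r is given as a description. Adamts1 was most like Gadd45b (0.81), Junb (0.76) and M6pr (0.73). Plau was most like Tlr4 (0.92), Milr1 (0.89) and Cd200r1 (0.89), Timp1 like Nov (0.97), Dapl1 and Slc9a2, and Timp2 like Arap1 (0.87), Naglu and Cd82. Timp3 was most like Igfbp2 (0.88), Adamts9 (0.88) and Ikbip, Mmp2 like Fbn2 (0.91), Enpp1 and Col13a1, and Mmp14 like Parva (0.91), Ddr2 and Fstl1. Adamts5 was most like Cdh11 (0.89), Tcta and Col16a1, Plat like Sptbn1 (0.93), Ginm1 and Stard13, and Serpine2 like Mtmr10 (0.83), Tns3 and Astn2.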

How the data were processed

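Cells of a dissociated cortex with meninges, enriched for CD140a, were profiled in 1 N-PRα-KO and 1 WT library by BD Rhapsody whole-transcriptome capture, which reads the 3′ end. The values are raw counts of UMIs per cell and gene, deposited by the authors and corrected for amplification errors by the BD pipeline (version 1.10 for N-PRα-KO, 1.10.1 for WT, per the file headers, with GRCm38 and GENCODE M19). The submitters' processing notes name GRCm38 and mm10. For the aligner, no name was given in the sources read. The pipeline version and run differ between the libraries and cannot be told apart from genotype.

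Barcodes with 300 or more genes and no more than 25% mitochondrial UMIs were taken as cells (50.3% of N-PRα-KO and 88.0% of WT barcodes), and Scrublet calls removed (0.238% and 1.73%). Both libraries were clustered together (scanpy 1.11.5, leidenalg 0.10.2, 2000 variable genes without the genes studied, 30 components, 20 neighbours, resolution 1). Clusters were named from marker lists by their mean fold over other clusters, with at least 3 markers detected and a score of at least 0.5; the scoring was set after the clusters had been seen. Fibroblast-like cells and mural-like cells were each clustered again (1000 genes, 20 components, resolution 0.5), with every gene first centred within its library. Centring takes out the mean difference between the libraries, so cells that share such a sub-cluster need not be alike.

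Class sums of UMIs were scaled to CPM by library, with exact Poisson intervals for levels, Clopper-Pearson intervals for shares and exact conditional intervals for ratios (scipy 1.17.1). In ratios, counts under 3 were set to 3. UMIs of 1 cell are not independent samples, so intervals cover counting error only. With no replicates there is no test. For depth, cells were thinned to 2000 UMIs. A trend of all log2 ratios on the GC content of the last 500 transcript bases (GENCODE M21) was removed by lowess (statsmodels 0.14.6) as an alternative. The scripts were tested on simulated data.

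The genes and lists were chosen with earlier results of these data known. Named were all 10 genes, the 5 highest and 5 lowest other pathway genes in fibroblast-like cells and the highest in level per class, the 3 most similar genes, overlapping genes and up to 2 immediate early genes. A gene that this rule names is not reported here.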

Additional observations from a re-analysis of the deposited data

Results flagged for a closer look

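Adamts5 and Plau took opposite directions in different cell classes, past 2-fold on both sides. The difference between the classes was not tested, since each genotype has 1 library. The log2 ratio of Adamts5 (N-PRα-KO over WT) was 1.28 in mural-like cells, where the WT value rested on 4 UMIs. It was -1.93 in cluster 24, -1.49 in astrocyte-like cells and -1.23 in oligodendrocyte-lineage-like cells. The cells of these last classes sat in different clusters in each library, and some were at like levels: 17.3 CPM in N-PRα-KO astrocyte cluster 14 and 16.8 CPM in WT astrocyte cluster 3, and 32.6 CPM in N-PRα-KO oligodendrocyte cluster 31 beside 32.4 to 49.6 CPM in 5 WT clusters. The log2 ratio of Plau was 2.12 in fibroblast-like cells. It was -1.21 in mural-like cells, where sub-cluster 0 had 3.71 CPM in N-PRα-KO and 163 CPM in WT cells, from 2 and 10 UMIs, and sub-cluster 1 had 65.6 and 74.7 CPM. It was -2.40 in border-macrophage-like cells and -2.39 in microglia-like cells.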

How the results depend on the processing

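No paired analysis was possible because each genotype has 1 library. In fibroblast-like cells the count of the 10 genes at least 2-fold higher, 2 as reported, was 1 with the GC trend removed, with a stricter cell filter (1000 genes, 10% mitochondrial UMIs), with each library clustered alone, with the lowest class subtracted, at a minimum of 50 CPM, in sub-cluster 4 and in the shared sub-clusters. The count at least 2-fold lower, 1 as reported, was 2 with the stricter filter, with each library clustered alone and without cluster 18. Of the other pathway genes, 10 instead of 6 were higher at a 1.5-fold limit, and 15, 4 and 3 instead of 7 were lower with the stricter filter, after thinning and at 50 CPM. Timp2 in fibroblast-like cells was under 2-fold with the GC trend removed (0.93), each library alone (0.59), the lowest class subtracted (0.57), in sub-cluster 4 (0.70) and in the shared sub-clusters (0.97). Adamts1 there ranged from -4.46 to -2.95. With each library clustered alone, the fibroblast classes were not matched. A WT cluster of 109 cells, with Nov and Shisa3 among its leading genes as in cluster 24, was named fibroblast. An N-PRα-KO cluster of 82 cells with the same genes was named arachnoid barrier and left out. In WT cells of cluster 24 Timp2 was at 539 CPM and Adamts5 at 284 CPM. The part of this mismatch in that setting's ratios and counts was not tested. The stricter filter gave the opposite sign for Plau in fibroblast-like cells (-0.87, from 80 N-PRα-KO and 9 WT cells). It did so too for Adamts1 in endothelial-like cells (0.61, from 13 and 18 cells) and Timp3 in border-macrophage-like cells (-0.18, from 16 and 11 cells). Counts under 3 were set to 3 in ratios, so with these few cells the signs do not settle a direction. Subtraction gave Timp2 ratios of -1.34 in astrocyte-like and -3.51 in endothelial-like cells. The latter were the lowest N-PRα-KO class, so their N-PRα-KO count was set to 3 and the value is not a measured reversal. Thinning gave -0.37 for Mmp2, -0.63 for Mmp14 and -0.15 for Plat in border-macrophage-like cells. Few thinned cells held a UMI there, and for Mmp2 and Plat the WT count was set to 3, so these signs do not show a direction. Of 35 ratios past 2-fold, 35 stayed past it under median-ratio scaling, 25 after thinning and 23 with the GC trend removed; with the stricter filter 17 of 24 did. The settings by sub-cluster, without cluster 18 and within endothelial cluster 26 were chosen after seeing the data. Clustering again gave no value for cluster 24.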

Other observations

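Barcodes over the mitochondrial limit were not used in the report. In those with at least 300 genes, 2659 from N-PRα-KO and 851 from WT, Timp2 was at 356 CPM (totals without mitochondrial and ribosomal protein genes) in N-PRα-KO and 165 CPM in WT barcodes, against 516 and 115 CPM in the cells used. Adamts1 was at 29.7 CPM in N-PRα-KO and 112 CPM in WT barcodes over the limit, against 63.0 and 114 CPM in the cells used. These barcodes were assigned to no class, and classes differ in number between the libraries.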
